A study of Mus musculus with 232 samples.

Results

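The 353 cells described here are those that the authors' cell table assigns to the cluster nIPC, in the usual reading neuronal intermediate progenitor cells, out of 24185 cells of the mouse dentate gyrus. Cells of the neighbouring cluster nIPC-perin (468 cells) were not counted among them. The cluster name was the only criterion, so no gene's level was used here to choose the cells, although the authors' clustering rests on the same counts. The dentate gyrus was dissected from brain slices at 8 ages, dissociated with papain and captured in droplets with the 10X Genomics Chromium kit, version 2. E16.5, P0 and P5 (perinatal) came from CD-1 mice of unrecorded sex and gave 51, 60 and 120 nIPC cells. The juvenile ages were P18 (male CD-1, 25 cells), P19 (female C57Bl/6, 28 cells) and P23 (male CD-1, 12 cells). The adult ages were P120 (40 cells) and P132 (17 cells), each a pool of male and female hGFAP-GFP mice, which carry a GFP gene under the human GFAP promoter, and only cells sorted as GFP-positive were captured. Adult age, mouse line and sorting therefore cannot be told apart, and a progenitor that does not use the GFAP promoter, or retains no GFP from a mother cell that did, would be missed by the sort. Animals of an age were pooled, so the age is the replicate, and p-values measure the spread between ages of a stage, which differ in animals and, among juvenile ages, in strain and sex.

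Intermediate progenitors stand between radial glia-like stem cells and neuroblasts. They divide a limited number of times, use proneural transcription factors of the basic helix-loop-helix family, and pass on to the young granule neuron programme under Prox1 and Neurod1. Eomes (Tbr2) is a T-box factor that marks this step in glutamatergic lineages of cortex and hippocampus, whereas Dlx homeobox factors mark progenitors of inhibitory neurons.

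The nIPC sums held 46945 (P132) to 730466 (P5) unique molecular identifiers (UMIs), and the median cell held 7962 UMIs at E16.5, 5499 at P0, 5662 at P5, 2295 at P18, 2821 at P19, 4879 at P23, 5190 at P120 and 2480 at P132. Levels are counts scaled to a sum of 1000000 UMIs (CPM), so 1 UMI is worth more CPM in the smaller sums, those of P18, P19, P23 and P132. Of the nIPC barcodes, 14 also occur in another library, among 456 such barcodes in the series. At E16.5, 3 cells carried 98.8% of 7110 haemoglobin and Alas2 UMIs, and the summed level of these 5 blood genes there was 15859 CPM with them and 209 CPM without them, against 0 to 177 CPM at the other ages. Endothelial genes summed to 426 CPM at P132, against at most 34.8 CPM elsewhere, and all 20 UMIs behind that value lay in 1 cell. These 4 cells, each with over 1% of its UMIs in markers of another cell type, were left out as a check, and counts are given without them where that matters.

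All 5 markers given for the cell type were present at every age. Averages of a cluster over ages, here and below, weigh equally the ages at which it had 10 or more cells. There were 8 such ages for nIPC, Neuroblast and Immature-GC, 4 for RGL, and 3, all perinatal, for nIPC-perin and RGL_young. Clusters are thus not compared at the same ages. On these averages the nIPC cluster was the highest of the 24 clusters for Eomes (262 CPM), Neurog2 (333 CPM) and Top2a (779 CPM). It was the second highest for Cdk1, the mitotic kinase (252 CPM, against 314 CPM in nIPC-perin), and for Neurod4, a late proneural factor (51.0 CPM, against 55.7 CPM in Neuroblast). Microglia, endothelial and mature oligodendrocyte clusters averaged 0.601 to 3.44 CPM of Eomes. Neuroblast cells carried Eomes as well, at the shares of cells given below. The name therefore matched its markers, and the cluster is called nIPC below.

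Eomes measured 248, 448 and 441 CPM at E16.5, P0 and P5, 176, 278 and 265 CPM at P18, P19 and P23, and 179 and 63.9 CPM at P120 and P132. P0 and P5 were the highest ages and P132 the lowest, and the perinatal and juvenile ranges overlapped. Neurog2, a proneural factor that acts upstream of Eomes in the cortex, measured 526, 517 and 344 CPM at the perinatal ages, 387, 313 and 332 CPM at the juvenile ages, and 135 and 107 CPM in adults. Both adult values lay below all 6 others. Top2a, the topoisomerase that untangles chromosomes before mitosis, had another order, with 491, 745 and 686 CPM perinatally, 563, 997 and 913 CPM in juveniles, and 1071 and 767 CPM in adults.

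**Figure D1:**
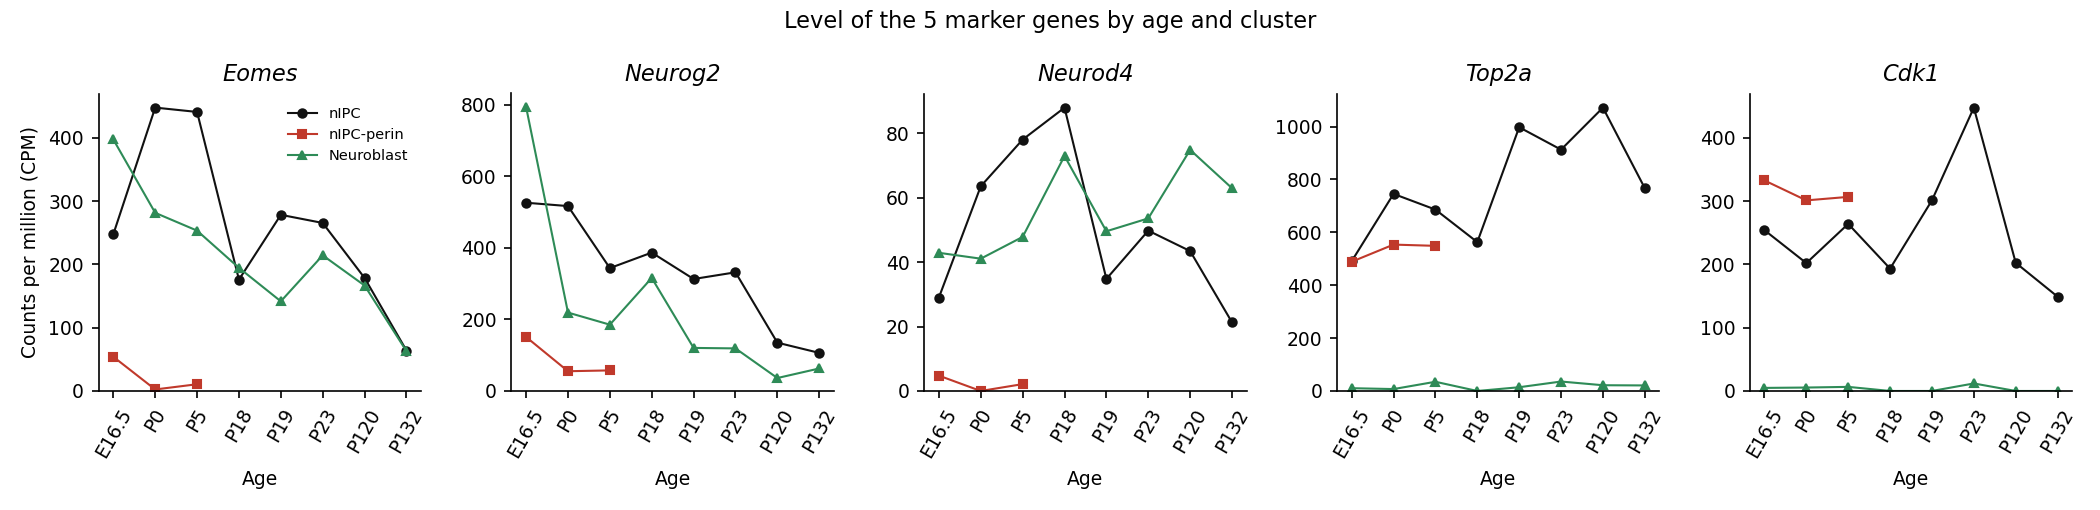
Level of the 5 marker genes (CPM, y axis) at each age (x axis) in nIPC, nIPC-perin and Neuroblast, 1 point per age and cluster with 10 or more cells. Eomes and Neurog2 of nIPC end at 63.9 and 107 CPM at P132, and Top2a stays at or above 491 CPM at every age.

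The genes that set nIPC apart from its neighbours in the lineage were those of late G2 phase and mitosis. Each of the 12 genes with the largest ratio of nIPC to the highest of RGL_young, RGL, Neuroblast and Immature-GC acts in the cell cycle or in packing DNA, a description of the clustering and not a test. Ccnb1, the cyclin that activates Cdk1, averaged 588 CPM in nIPC against 6.20 CPM in RGL, and Top2a averaged 779 against 21 CPM in RGL_young. Spc25, Hist1h2ap, Cks2, Cdc20, Ube2c, Nusap1, Birc5, Cenpf and Prc1 were also among them, with ratios of 18.6 to 28.3. None of the 11 genes named was particular to nIPC, since nIPC-perin held 260 to 789 CPM of each.

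The promoters of such genes are shown because genes of this phase are known to share 2 short elements, the CCAAT box bound by NF-Y and the cell cycle genes homology region read by the DREAM and MuvB complexes, searched here as TTTGAA or TTCGAA. Both were searched on both strands in the 250 bases before each RefSeq start (GRCm38.p6), and a match is a description and not a bound site. The 150 bases before the start are printed 5′ to 3′ on the gene's strand, with the matches of either element in capitals. They lie at chr11:99024190-99024339 (minus strand) for Top2a, chr10:69352913-69353062 (minus) for Cdk1, chr13:100786487-100786636 (minus) for Ccnb1 and chr9:118478039-118478188 (plus) for Eomes.
Top2a: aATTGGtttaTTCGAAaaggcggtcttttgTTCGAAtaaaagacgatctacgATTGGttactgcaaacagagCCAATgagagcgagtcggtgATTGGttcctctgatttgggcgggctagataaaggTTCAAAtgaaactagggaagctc
Cdk1: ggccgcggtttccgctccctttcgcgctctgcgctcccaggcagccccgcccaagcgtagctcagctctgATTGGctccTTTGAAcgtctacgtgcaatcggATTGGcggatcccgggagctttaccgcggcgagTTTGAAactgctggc
Ccnb1: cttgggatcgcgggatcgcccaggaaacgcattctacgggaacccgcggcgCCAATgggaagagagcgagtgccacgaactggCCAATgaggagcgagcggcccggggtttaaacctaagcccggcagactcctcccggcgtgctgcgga
Eomes: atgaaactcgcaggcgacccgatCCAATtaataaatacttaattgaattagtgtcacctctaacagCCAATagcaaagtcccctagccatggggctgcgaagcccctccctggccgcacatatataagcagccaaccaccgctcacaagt

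The Top2a sequence held 3 matches of TTTGAA or TTCGAA and 4 of CCAAT, and the Cdk1 sequence 2 of each. The Ccnb1 and Eomes sequences held 2 CCAAT boxes each and no match of the other element in these letters. Of 46 promoters of the G2 and M phase list (42 of its 49 genes matched), 45.7% held both elements, against 6.02% of all 32851 promoters. For the S phase list the share was 16.7% (5 of 30 promoters, 27 of 35 genes matched), and for the proneural list 5% (1 of 20 promoters, 13 of 18 genes matched).

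Transcripts of the 49 G2 and M phase genes made up a similar share of the cell at every age. The median nIPC cell devoted 1.46%, 1.46% and 1.32% of its UMIs to them at the perinatal ages, in order of age. The juvenile medians were 1.30%, 1.59% and 1.82%, and the adult medians 1.5% and 1.07%. The range between the 10th and the 90th percentile cell was wide, for example 0.591% to 2.60% at E16.5. Medians in RGL_young, RGL, Neuroblast and Immature-GC did not exceed 0.126% at any age, and 1 nIPC cell, at P132, had no UMI of the list. In nIPC-perin the medians were 1.34%, 1.21% and 1.0% at the 3 perinatal ages.

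**Figure D2:**
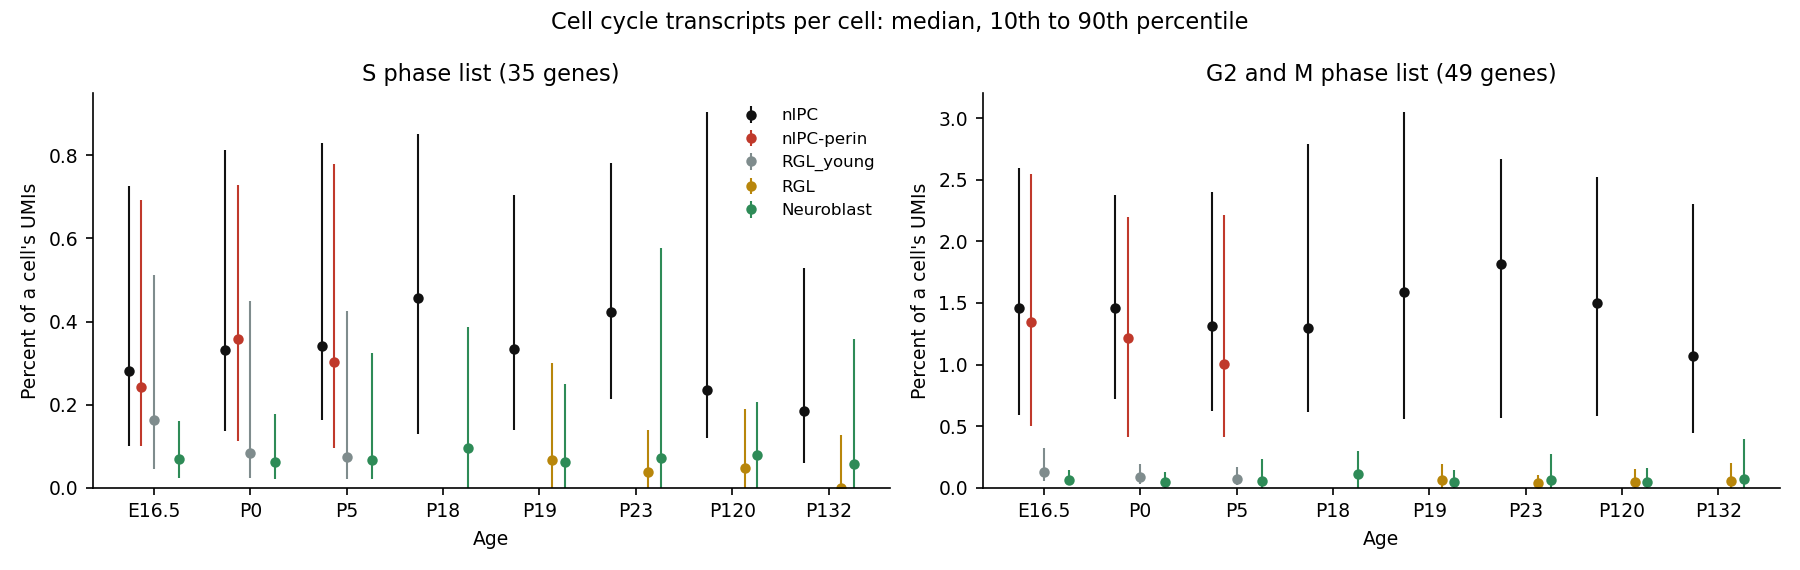
Percent of a cell's UMIs (y axis) in the S phase list (left) and the G2 and M phase list (right) by age (x axis) for 5 clusters, with points for the median cell and lines from the 10th to the 90th percentile. The nIPC medians of the G2 and M list lie between 1.07% and 1.82%, and those of RGL_young, RGL and Neuroblast at or below 0.126%.

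Within nIPC, cells rich in G2 and M transcripts were poor in transcripts of S phase and its start. The cells of each age were divided at that age's median G2 and M content, so the split is by measured values and the ratios are a description. Ccne2, a cyclin of S phase entry, averaged 4.75 CPM in the rich cells and 107 CPM in the poor cells. Ccne1 averaged 14.9 against 52.0 CPM, and Pcna, the sliding clamp of DNA polymerase, 74.5 against 284 CPM. All 3 were lower in the rich cells at 8 of 8 ages, and the median S phase content was 0.167% to 0.296% of UMIs in the rich cells and 0.409% to 0.712% in the poor cells. Eomes differed little, with 272 and 251 CPM, higher in the rich cells at 6 of 8 ages. Prox1, the granule cell fate factor, averaged 154 and 196 CPM and was lower in the rich cells at 7 of 8 ages.

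**Figure D3:**
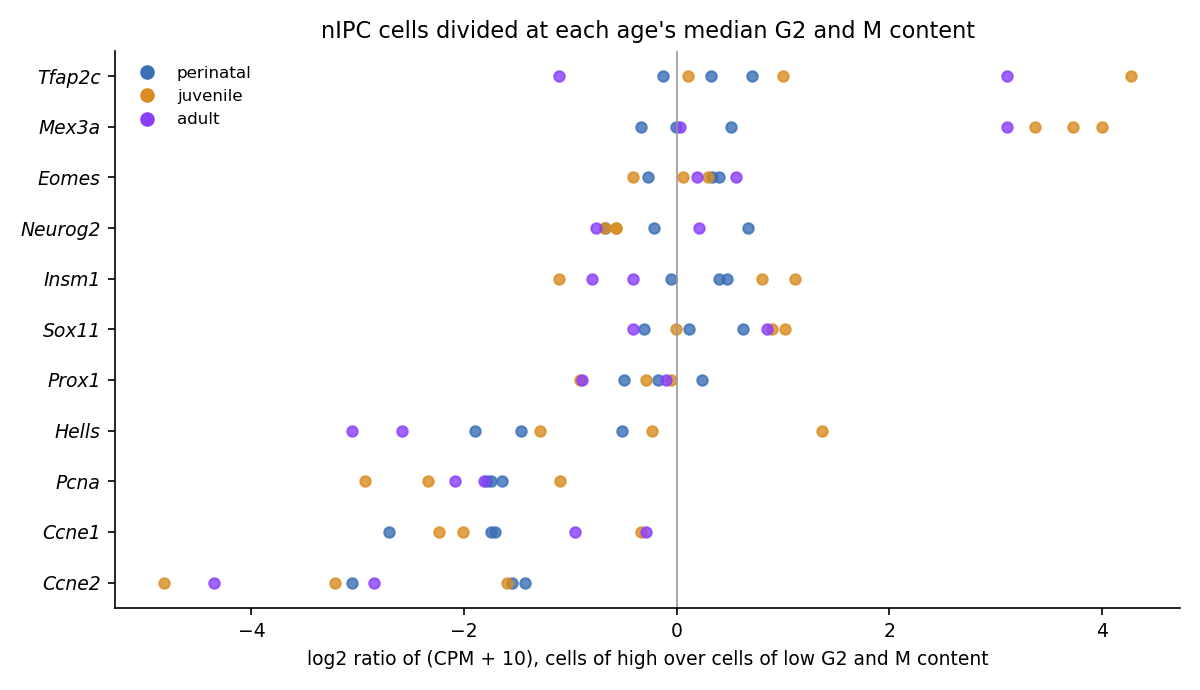
The log2 ratio of CPM + 10 (x axis) between nIPC cells above and below their age's median G2 and M content, for 11 genes (y axis) chosen after their values were seen, 1 point per age. Ccne1, Ccne2 and Pcna lie left of 0 at 8 of 8 ages, while Eomes, Neurog2 and Insm1 fall on both sides.

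Proneural genes differed in where along the lineage they were highest. Insm1, a zinc finger factor of basal progenitors, averaged 290 CPM in nIPC, the highest of 24 clusters, against 29.1 CPM in RGL and 62.0 CPM in Neuroblast. Neurod1, which drives granule neuron maturation, averaged 175 CPM in nIPC, 43.5 CPM in RGL and 816 CPM in Neuroblast. Prox1 was highest in later clusters, with 155 CPM in RGL, 173 CPM in nIPC, 410 CPM in Neuroblast and 666 CPM in Immature-GC. Ccnd2, the D-type cyclin of intermediate progenitors, averaged 1419 CPM in nIPC, the highest of 24 clusters. That mean includes later ages, among them P120 at 3358 CPM, whereas nIPC-perin and RGL_young were averaged over perinatal ages only. The rank is thus not one at like ages.

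The Notch pathway keeps radial glia undifferentiated through Hes repressors. Among its targets, Hes5 averaged 42.0 CPM in nIPC against 629 CPM in RGL_young and 633 CPM in RGL, and Hes1 averaged 24.7 CPM against 324 and 100 CPM. Hes6 was the highest of the 7 genes on the target list, at 265 to 546 CPM at every age. It antagonises Hes1 and is a target of proneural factors, so its level is not read here as Notch output. The 5 ligands summed to 20.1 to 63.5 CPM at the perinatal ages, 87.9 to 116 CPM at the juvenile ages and 96.5 to 128 CPM in adults. The P18, P19, P23 and P132 sums held only 56853, 86237, 60273 and 46945 UMIs of all genes. Ligand values there rest on few UMIs and are not read as a rise. None of these ligands was abundant enough to be tested between perinatal and juvenile ages. For 1 receptor (Notch1), 3 modifiers and 2 genes of the target list that test was made, and none passed. Notch1 ranged from 62.5 CPM at E16.5 to 277 CPM at P132.

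The 2 intermediate progenitor clusters of the perinatal dentate gyrus had similar sums of G2 and M phase genes and differed in radial glia-like and proneural ones. G2 and M phase genes summed to 15439, 15465 and 14335 CPM in nIPC at E16.5, P0 and P5, and to 14270, 13184 and 12383 CPM in nIPC-perin. Of 18 proneural and early progenitor genes, the 3 ages of nIPC lay above the 3 of nIPC-perin, without overlap, for 14 and below for 0. Of 16 radial glia-like genes, they lay below for 14 and above for 0. Over the 8317 genes with a mean of 10 CPM or more in these sums, 10.8% lay above and 16% below, and at that level the lists held 13 of 17 above and 14 of 16 below. The direction of these lists follows from how the authors divided the cells and was not tested.

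Fabp7, the brain lipid-binding protein of radial glia, led this contrast with 591, 194 and 441 CPM in nIPC against 6122, 7666 and 6453 CPM in nIPC-perin. Ptn (14.8 times), Apoe (10.8 times), Ptprz1 (7.55 times) and Mt3 (7.11 times), all abundant in glia, were likewise higher in nIPC-perin, with 10 CPM added to both sides. On the other side, Eomes measured 248, 448 and 441 CPM in nIPC against 54.0, 2.40 and 10.7 CPM. Neurod1 (8.47 times), Pcp4 (7.40 times) and Mpped1 (7.12 times) were also higher in nIPC, Pcp4 being a calmodulin regulator and Mpped1 a phosphodiesterase-like protein of forebrain. Hbb-bt completed the 10 genes chosen by ratio, at 10.6 times, and its level in nIPC was 1550 CPM at E16.5, where 3 cells held most haemoglobin, against 2.89 and 11 CPM at P0 and P5. By number, nIPC-perin outweighed nIPC at E16.5, P0 and P5 (159, 136 and 156 cells) and had at most 7 cells at any later age.

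As a share of all captured cells, nIPC made up 2.23%, 1.26% and 2.71% at E16.5, P0 and P5, and 0.922%, 1.35% and 0.444% at P18, P19 and P23. The mean was 2.06% ± 0.74 (SD, n = 3) perinatally and 0.904% ± 0.451 (SD, n = 3) in juveniles. P0 and P19 overlapped, and a two-sided exact permutation test gave p = 0.2, where 0.1 is the smallest p that 3 against 3 allows. Over cells of the granule lineage alone the shares were 6.25% ± 2.54 and 1.45% ± 0.714 (SD, n = 3 each), without overlap (exact permutation p = 0.1). With nIPC-perin counted in, they were 6.50% ± 2.56 and 1.06% ± 0.345 of all cells, also without overlap (exact permutation p = 0.1). The 2 adult ages stood apart at 2.93% and 0.444%, and since both were sorted by GFP they were not compared.

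Between perinatal and juvenile ages 45 of 3540 genes tested (1.27%) passed edgeR's quasi-likelihood test at a Benjamini-Hochberg adjusted p under 0.05, 24 higher (0.678%) and 21 lower (0.593%) in juveniles. Of all genes tested, 22.1% had no overlap between the 3 perinatal and the 3 juvenile ages. By list, 3 mitochondrially encoded genes, 2 S phase genes (Pcna and Rrm2) and 2 high-mobility group genes (Hmgb1 and Hmgn2) rose. The translation factors Eef1a1 and Eef1g, the cytoskeletal genes Tubb2b and Marcksl1, and Ldha fell. The count rests on single ages: without P0 or without P19 it fell to 2 genes, without P18 to 5 and without E16.5 to 25, while it was 53 without P23 and 30 without P5. Gm8730 was called in 6 of 6 and mt-Co1 in 5 of 6 such fits, and each other gene in at most 3. Without the 4 cells rich in markers of other cell types 47 genes were called, among them the same 45.

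Of the S phase genes, 2 of 26 tested rose and 0 fell, with a median log2 difference of 0.07 over the list against -0.01 over all genes tested. Rrm2, a subunit of ribonucleotide reductase that supplies DNA precursors, measured 259, 254 and 285 CPM at E16.5, P0 and P5 and 616, 510 and 664 CPM at P18, P19 and P23. The juvenile ages lay well above the perinatal ages, and the adult mean of 273 ± 24 CPM (SD, n = 2) was close to the perinatal one. The log2 difference was 1.16 ± 0.24 (SE; edgeR adjusted p = 0.0199). Pcna measured 66.9, 110 and 84.9 CPM and then 369, 255 and 149 CPM, with P23 the nearest to the perinatal ages (log2 difference 1.59 ± 0.34, SE; edgeR adjusted p = 0.0228). Pcna shares 23.3% of its 31-base words with other genes, most with Pcna-ps2, so its count may be split.

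Of the G2 and M phase genes, 0 of 45 tested passed in either direction, with a median of 0.30 and 37 of 45 above 0. Top2a differed by 0.39 ± 0.26 (SE; edgeR adjusted p = 0.518) and Cdk1 by 0.39 ± 0.29 (SE; edgeR adjusted p = 0.583), so no difference beyond the spread between ages was found for these markers. Pbk, a mitotic kinase outside that list, did pass. It measured 330, 367 and 430 CPM perinatally and 844, 835 and 730 CPM in juveniles (log2 difference 1.11 ± 0.23, SE; edgeR adjusted p = 0.0228). Ccnd2, at 326, 809 and 884 CPM and then 739, 1994 and 1261 CPM, did not pass (1.03 ± 0.34, SE; edgeR adjusted p = 0.142). Lockd, a long noncoding RNA beside the gene of a cyclin-dependent kinase inhibitor, rose from 325 ± 24.7 to 769 ± 194 CPM (SD, n = 3 each). Cdkn2c, an inhibitor of the kinases of G1 phase, stood at 206 ± 78.7 and 473 ± 266 CPM (SD, n = 3 each) and did not pass (edgeR adjusted p = 0.0919). Cetn2, a centriole protein, rose from 89.3 ± 17.6 to 229 ± 16 CPM (SD, n = 3 each).

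High-mobility group genes encode abundant proteins that loosen chromatin, and 2 of 7 tested rose and 0 fell. Hmgn2 measured 3143, 3426 and 2869 CPM at the perinatal ages and 9287, 13880 and 4546 CPM at the juvenile ages. It stayed at 8608 and 7669 CPM in adults (juvenile minus perinatal, log2 1.58 ± 0.29, SE; edgeR adjusted p = 0.0163). Hmgn2 was higher in juvenile nIPC than in any other juvenile cluster, where all cells together averaged 373 CPM, and all perinatal cells 496 CPM. Gm10282, which shares 83.6% of its 31-base words with Hmgn2, moved with it, from 41.3 ± 8.97 to 242 ± 168 CPM (SD, n = 3 each), and its P23 value of 49.8 CPM only just passed that of E16.5 (49.1 CPM). Hmgb1 rose from 2394 ± 382 to 4362 ± 657 CPM (SD, n = 3 each).

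Apoe was the 1 of 9 radial glia-like genes tested that passed, with a list median of 0.34. Ptprz1, a receptor phosphatase of radial glia, measured 64.7, 57.8 and 168 CPM perinatally, 264, 348 and 282 CPM in juveniles, and 425 and 852 CPM in adults (juvenile minus perinatal, log2 1.58 ± 0.38, SE; edgeR adjusted p = 0.0459). Apoe, a lipid carrier of glia, rose from 93.1 ± 59.8 to 306 ± 55.4 CPM (SD, n = 3 each) and stood at 526 and 724 CPM in adults. Over all cells Apoe averaged 711 CPM perinatally and 1691 CPM in juveniles, with 45378 CPM in juvenile perivascular macrophages (cluster PVM). The 7 microglia genes summed to 0 to 11 CPM in perinatal and 17.6 to 116 CPM in juvenile nIPC, with Csf1r and Tmem119 at 0 at all 3 juvenile ages. The 5 perivascular macrophage genes were at 0 at P19 and P23 and summed to 17.6 CPM at P18. The part of these cells' RNA in the difference was not tested. With nIPC-perin cells added to the sums, the difference turned negative, -0.43 for Ptprz1 and -0.25 for Apoe on the log2 scale. Sox2, a stem cell factor on the radial glia-like list, stood at 128 ± 52.9 and 258 ± 51.6 CPM (SD, n = 3 each; edgeR adjusted p = 0.133). Thrsp, a regulator of lipid synthesis, rose from 212 ± 107 to 707 ± 372 CPM (SD, n = 3 each). Summed radial glia-like genes were 2045 to 2264 CPM perinatally, 2482 to 2903 CPM in juveniles and 3358 to 4409 CPM in adults.

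Some genes that rose are best known from other cells. The 8 genes of the oligodendrocyte list summed to 20.2 to 41.1 CPM in perinatal and 174 to 664 CPM in juvenile nIPC, and Mog was at 0 at all 3 juvenile ages. Slc17a7, the vesicular glutamate transporter of mature neurons, averaged 61.2 CPM in juvenile nIPC and 146 CPM in juvenile microglia. Lgi1, a secreted synaptic protein, rose from 9.06 ± 8.93 to 92.4 ± 38.1 CPM (SD, n = 3 each), against 277 CPM over all juvenile cells. The part of free RNA from other cells in these differences was not tested.

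Of the 12 mitochondrially encoded genes tested, 3 rose and 0 fell, with a median of 0.61. mt-Co1, a subunit of cytochrome c oxidase, measured 4735, 5702 and 5977 CPM at the perinatal ages and 15074, 13730 and 11514 CPM at the juvenile ages (log2 difference 1.31 ± 0.18, SE; edgeR adjusted p = 0.00243). mt-Atp6 and mt-Atp8, which encode subunits of ATP synthase, also passed. In all cells together mt-Co1 averaged 5800 CPM perinatally and 14290 CPM in juveniles. The averages were 13950 and 30671 CPM for mt-Atp6, and 64.5 and 192 CPM for mt-Atp8, so these increases were not limited to nIPC. In nIPC the mitochondrially encoded transcripts summed to 4.27% to 5.16% of UMIs perinatally and 6.71% to 8.67% in juveniles. They summed to 3.07% and 8.56% at P120 and P132. The share is also a sign of how well cells came through dissociation, and its part in the other differences was not tested. Of 10 immediate early and heat shock genes, which respond to dissociation, 0 passed, with a median of -0.01. Marf1, a regulator of germ cell RNA, and Gm11808, which shares 94.7% of its words with another gene, were also among the increases named by size. Further increases were Cst3, Gpm6a, Txnip, Gm9843 and 1810037I17Rik. Gm9843 shares 100%, mt-Atp6 99.5% and mt-Co1 63.9% of its words with other genes, so these counts may be split. Cst3, a protease inhibitor most abundant in microglia, rose from 578 ± 191 to 1452 ± 467 CPM (SD, n = 3 each). Over all cells it averaged 1154 CPM perinatally and 3639 CPM in juveniles, with 65402 CPM in juvenile microglia, whose listed genes were also higher in juvenile nIPC, at the sums given with Apoe.

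Of 13 genes on the cytoskeleton list 2 fell and 0 rose, with a median of -0.40. Tubb2b, a tubulin of young neurons, measured 1204, 1083 and 838 CPM perinatally and 299, 325 and 514 CPM in juveniles (log2 difference -1.46 ± 0.27, SE; edgeR adjusted p = 0.0163). Tubb2b shares 43.1% of its words with other genes, most with Tubb2a, so its count may be split. Marcksl1, an actin-binding substrate of protein kinase C, fell from 2083 ± 239 to 846 ± 307 CPM (SD, n = 3 each). Basp1, a membrane protein of growth cones, measured 464, 277 and 205 CPM and then 17.6, 69.6 and 66.4 CPM (log2 difference -2.54 ± 0.49, SE; edgeR adjusted p = 0.0163). Cd24a, a surface protein of neuroblasts, fell from 483 ± 168 to 83.5 ± 116 CPM (SD, n = 3 each), its juvenile values being 0, 34.8 and 216 CPM. Csrp2, a LIM protein of actin bundles, measured 321, 404 and 249 CPM and then 87.9, 81.2 and 116 CPM. In all cells together Tubb2b averaged 3192 CPM perinatally and 375 CPM in juveniles, Marcksl1 2532 and 512 CPM, and Cd24a 962 and 63.4 CPM. Basp1 averaged 662 and 455 CPM there, and Csrp2 218 and 35.2 CPM. The decreases of these genes were thus not limited to nIPC.

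Of the neuroblast and young neuron list 1 of 10 tested genes fell and 0 rose, with a median of -0.72. That gene was Igfbpl1, a marker of immature neurons, with 1896, 2239 and 1622 CPM perinatally and 950, 731 and 1078 CPM in juveniles (log2 difference -1.06 ± 0.23, SE; edgeR adjusted p = 0.026). Of 16 proneural and early progenitor genes tested, 0 passed in either direction, with a median of -0.41. Gadd45g, a stress-response gene of new progenitors, stood at 250 ± 31 and 470 ± 90.2 CPM (SD, n = 3 each; edgeR adjusted p = 0.0919). Eomes differed by -0.62 ± 0.30 (SE; edgeR adjusted p = 0.348), Neurog2 by -0.42 ± 0.28 (SE; edgeR adjusted p = 0.516) and Neurod1 by -0.84 ± 0.32 (SE; edgeR adjusted p = 0.212). Mex3a, an RNA-binding protein of progenitors, fell from 286 ± 96.8 to 70.4 ± 12.5 CPM (SD, n = 3 each), and Pcbp4, another RNA-binding protein, from 240 ± 25.4 to 57.2 ± 19.5 CPM. Over all cells Igfbpl1 averaged 984 CPM perinatally and 104 CPM in juveniles, Mex3a 115 and 9.51 CPM, and Pcbp4 220 and 84.7 CPM.

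Of 15 hippocampal and nuclear factors tested, Emx2, a homeobox gene of the medial pallium, fell and none rose. It measured 174, 214 and 167 CPM perinatally and 35.2, 81.2 and 49.8 CPM in juveniles (log2 difference -1.63 ± 0.39, SE; edgeR adjusted p = 0.0459), whereas its paralogue Emx1 differed by -0.11 ± 0.30 (SE; edgeR adjusted p = 0.903). Tesc, a calcium-binding protein, measured 103, 170 and 129 CPM and then 0, 11.6 and 16.6 CPM, and was at 0 in both adult ages. Mpped2, related to Mpped1, fell from 259 ± 89.6 to 46.2 ± 50.4 CPM (SD, n = 3 each). Ralgps2, a guanine exchange factor for Ral, had 88 perinatal UMIs and 0 juvenile UMIs, which against a floor of 3 counts over the group is at least 3.91-fold lower. Over all cells Emx2 averaged 76.4 CPM perinatally and 26.2 CPM in juveniles, Mpped2 129 and 55.2 CPM, and Ralgps2 82.4 and 62.1 CPM. Tesc went the other way over all cells, from 24.5 to 59.3 CPM. Neurod6, a factor of pyramidal neurons, was too low to be tested, with 310 CPM at E16.5 and at most 66.4 CPM at any later age.

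Ldha, the lactate-forming enzyme, was the 1 glycolytic gene of 9 tested that passed, and it fell. It measured 366, 182 and 185 CPM perinatally and 17.6, 34.8 and 66.4 CPM in juveniles (log2 difference -2.62 ± 0.53, SE; edgeR adjusted p = 0.0194). Over all cells Ldha averaged 315 CPM perinatally and 128 CPM in juveniles. Of 11 translation factors 2 fell and 0 rose, with a median of -0.62. Eef1a1, the factor that brings aminoacyl-tRNA to the ribosome, measured 3935, 3839 and 3525 CPM and then 915, 1507 and 2157 CPM, and Eef1g, a further elongation factor, fell from 1051 ± 99.7 to 426 ± 18.7 CPM (SD, n = 3 each). Eef1a1 averaged 3840 CPM over all perinatal cells and 1162 CPM over all juvenile cells, so its level moved in the same direction in the whole tissue. The remaining decreases were Chd3, Tsg101, Atxn7l3b, Gnb2l1 and Rps23. Eef1a1, Eef1g, Rps23 and Tsg101 share 49.8%, 47.6%, 36.3% and 26.0% of their words with other genes, so their counts may be split. Gm8730, which shares 88.3% of its words with other genes and most with Rplp0, had the smallest p, with 1566, 1667 and 1732 CPM, then 158, 301 and 199 CPM, and 2644 and 1896 CPM in adults. Over all cells it averaged 1270 CPM perinatally and 114 CPM in juveniles, and in the microglia cluster 2012 and 360 CPM, so the difference was not limited to nIPC.

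**Figure D4:**
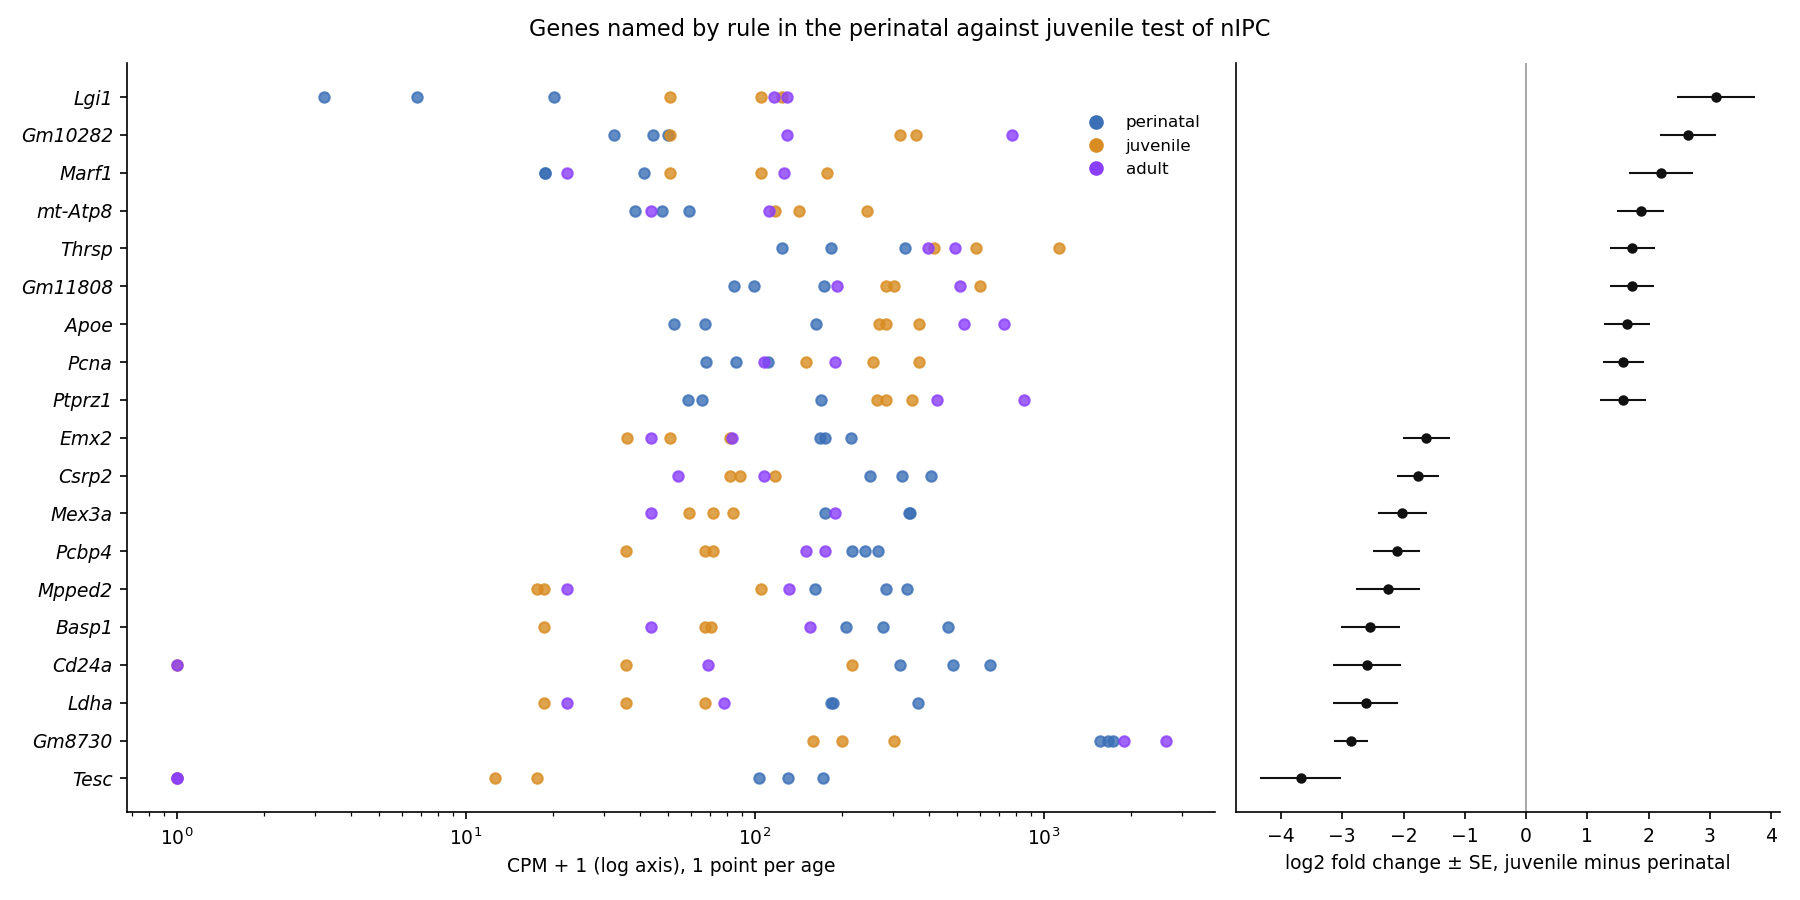
Left, level (CPM + 1, log axis) of 19 genes named by rule in nIPC, 1 point per age coloured by stage. Right, log2 difference ± SE of juvenile minus perinatal ages (edgeR), from 3.10 for Lgi1 to -3.68 for Tesc. Juvenile and perinatal points of a gene do not overlap, which the rule required.

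The mean share of cells with an Eomes UMI was lower in juveniles at each depth examined, and the stages overlapped only at equal depth. Unthinned, 68.6%, 80% and 84.2% of perinatal cells and 36%, 57.1% and 66.7% of juvenile cells had one, without overlap (77.6% ± 8.04 against 53.3% ± 15.7, SD, n = 3 each; exact permutation p = 0.1). Juvenile cells were shallower at P18 and P19. With each cell thinned to 1000 UMIs, which kept all cells, the shares were 13.7%, 35% and 35.8% and then 8%, 14.3% and 0%, with means of 28.2% ± 12.5 and 7.43% ± 7.16 (SD, n = 3 each; exact permutation p = 0.2). The overlap was that of E16.5 with P19. At P23, 0 of 12 thinned cells had a UMI, which allows up to 25% of cells at that depth and does not limit the cells that express Eomes, since 8 of the 12 had one unthinned. Thinned to 2000 UMIs, with shallower cells left out, the means were 46.7% and 42.8% (exact permutation p = 0.6). Of endothelial cells, 6.06% had an Eomes UMI at E16.5 (median 7538 UMIs) and 0% at P18, P19 and P23, so the unthinned nIPC shares were above background. Of Neuroblast cells thinned to 1000 UMIs, 31.1%, 21.5% and 21.1% had one perinatally and 8.33%, 13.4% and 10.6% in juveniles. In adults these Neuroblast shares were 12.3% and 4%, against 10% and 0% in thinned nIPC. Detection of Eomes was thus not particular to nIPC.

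The share with a Top2a UMI, thinned to 1000 UMIs, was 43.1%, 36.7% and 48.3% at the perinatal ages, 32%, 57.1% and 58.3% at the juvenile ages, and 45% and 47.1% in adults. The stages overlapped (42.7% ± 5.84 against 49.2% ± 14.9, SD, n = 3 each; exact permutation p = 0.6). Without thinning the juvenile mean lay below the perinatal one, 75.0% against 79.8%. At P18, P19 and P23, 0% to 4.26% of thinned Neuroblast cells had such a UMI.

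Between juvenile and adult ages 2 of 1159 genes tested (0.173%) passed, both higher in adults, and at an unadjusted p under 0.05 there were 137. They were Gm8730 (log2 difference 3.4 ± 0.36, SE; edgeR adjusted p = 0.00148) and the histone gene Hist1h2ak (6.27 ± 0.85, SE; edgeR adjusted p = 0.00738). Hist1h2ak measured 17.6, 11.6 and 0 CPM in juveniles and 1264 and 277 CPM in adults, and shares 70.0% of its words with other histone genes. Hist1h2ap was likewise high at P120 (4039 CPM) and not at P132 (596 CPM) or in juveniles (106 to 301 CPM), and did not pass (3.39 ± 0.66, SE; edgeR adjusted p = 0.124). The count rests on P132 and P23: without P132 42 genes were called, 25 higher and 17 lower, and without P23 edgeR called 0, with 131 at an unadjusted p under 0.05.

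The proneural genes did not pass in adults. Neurog2 averaged 121 ± 20.2 CPM (SD, n = 2) in adults and 344 ± 38.4 CPM (SD, n = 3) in juveniles, without overlap (log2 difference -1.35 ± 0.36, SE; edgeR adjusted p = 0.289). Emx1, a pallial homeobox factor, stood at 116 and 42.6 CPM against 162 to 299 CPM (-1.21 ± 0.48, SE; edgeR adjusted p = 0.335). Of 30 G2 and M phase genes tested 0 passed, with a median of -0.01, equal numbers lying above and below 0.

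A minority of nIPC cells carried transcripts of Dlx1, Dlx2, Dlx5 or Dlx6, and most of these cells were juvenile or adult. The cells with such a UMI were 2 of 51, 0 of 60 and 3 of 120 at E16.5, P0 and P5, which for P0 allows a share of up to 5%. They were 2 of 25, 6 of 28 and 1 of 12 at P18, P19 and P23, and 11 of 40 (27.5%) and 4 of 17 (23.5%) at P120 and P132. By stage this was 2.16% of perinatal, 13.8% of juvenile and 26.3% of adult cells, and after thinning to 1000 UMIs 0.433%, 6.15% and 14%. Dlx2 measured 2.23, 0 and 11 CPM perinatally, 35.2, 139 and 99.5 CPM in juveniles, and 203 and 192 CPM in adults, with no overlap between perinatal and later ages. The 10 genes of the inhibitory lineage list, Dlx genes included, summed to 37.5 to 73.9 CPM perinatally, 87.9 to 581 CPM in juveniles and 362 to 526 CPM in adults, and Lhx6, which marks interneurons of the medial ganglionic eminence, was at 0 from P0 on. These genes were too low for the test between perinatal and juvenile ages. Between juvenile and adult ages 1 of the 10 was tested with edgeR, and it did not pass (log2 difference 1.10). The pattern in shares of cells was noticed in these data, so it is given without a test. The adult cells were sorted by GFP, so stage, line and sort cannot be told apart there.

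The share in clusters that should lack these genes was lower. Among juvenile cells it was 0.595% of microglia (median 2841 UMIs), 0% of 304 endothelial cells (up to 0.987%) and 2.72% of mature oligodendrocytes (median 5887 UMIs), against 13.8% of nIPC (median 2715 UMIs). Among adult cells it was 0% of 125 microglia (up to 2.4%, median 1883 UMIs). It was also 0% of 336 mature oligodendrocytes (up to 0.893%, median 2138 UMIs). Both were shallower than adult nIPC (26.3%, median 4379 UMIs). Neuroblast cells had such a UMI in 2.39% of perinatal, 2.90% of juvenile and 12.3% of adult cells.

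**Figure D5:**
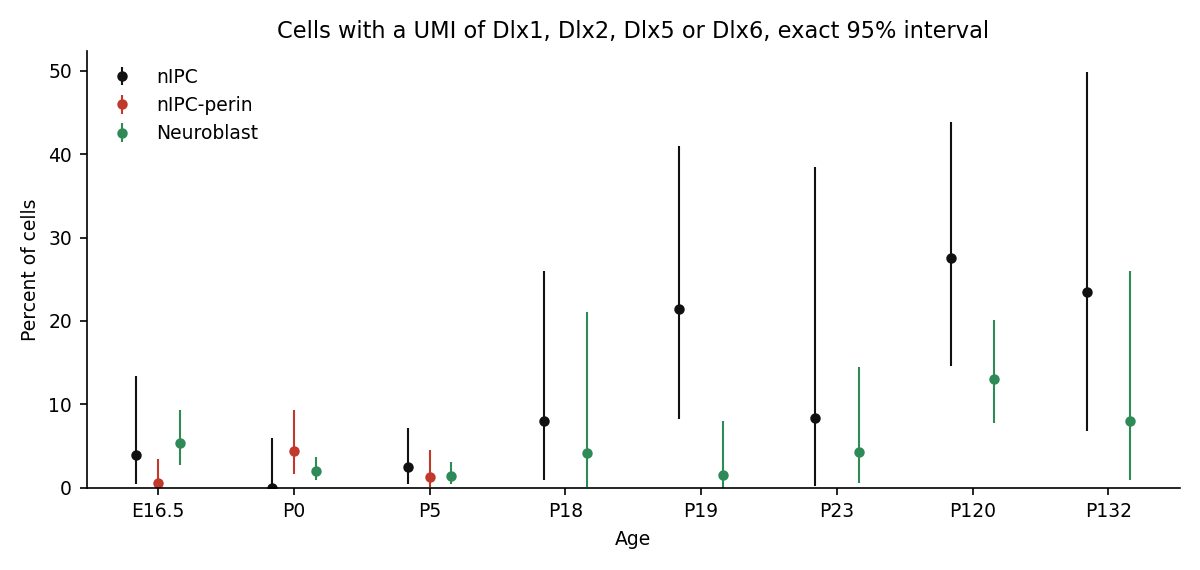
Percent of cells with a UMI of Dlx1, Dlx2, Dlx5 or Dlx6 (y axis) by age (x axis) in nIPC, nIPC-perin and Neuroblast, with exact (Clopper-Pearson) 95% intervals that cover counting error only. The nIPC points are at most 3.92% at the 3 perinatal ages and lie between 8% and 27.5% at the later ages.

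The 24 juvenile and adult cells with a Dlx UMI differed from the other 98 in glutamatergic and pallial genes and not in depth, with medians of 3177 and 3204 UMIs. Neurod1 was detected in 0 of the 24 (up to 12.5%) and in 30.6% of the 98, and Neurod4 and Tfap2c, a further factor of this lineage, in 0 of the 24 and in 15.3% and 22.4% of the 98. Emx1 was detected in 4.17% and 43.9%, Neurog2 in 12.5% and 42.9%, and Eomes in 20.8% and 53.1%. The 2 sets were alike in Top2a (83.3% and 76.5%) and Insm1 (66.7% and 62.2%). Prox1, which granule neurons and some interneurons use, was detected in 58.3% and 37.8%. The cells were chosen by a measured value and ages were pooled, so these shares are a description. A Dlx UMI was found in 15 of 57 adult and 9 of 65 juvenile cells, so adult cells were a larger part of the 24. The part of age in the differences between the 2 sets was not tested. Without the Dlx cells, 48 genes were called between perinatal and juvenile ages and 3 between juvenile and adult ages.

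The stage change of nIPC was set against that of Neuroblast, the next cluster of the lineage, in a model with age as a block, since both come from the same animals. Of 4825 genes tested 0 (0%) passed edgeR's interaction test at an adjusted p under 0.05, 305 had an unadjusted p under 0.05, and DESeq2 called 2. The smallest p belonged to Fabp7, which measured 591, 194 and 441 CPM in perinatal and 756, 429 and 680 CPM in juvenile nIPC. Its stage change was more positive in nIPC by 1.48 ± 0.27 on the log2 scale (SE; edgeR adjusted p = 0.0743). It passed without the 4 cells rich in other markers, without the Dlx cells, without P5, with no filter on low counts and under DESeq2. Id2, an inhibitor of proneural factors, came next (-1.66 ± 0.32, SE; edgeR adjusted p = 0.0819), and passed with no filter and without P5. Among genes called between stages within nIPC, the interaction was 0.74 ± 0.16 for Hmgn2 (edgeR adjusted p = 0.116), -2.18 ± 0.51 for Basp1 (edgeR adjusted p = 0.222) and 0.13 ± 0.23 for Gm8730 (edgeR adjusted p = 0.976). Hmgn2 passed with no filter, without the Dlx cells and without P18, and Basp1 with no filter and without P5. mt-Co1 (0.37 ± 0.09, SE; edgeR adjusted p = 0.222) passed without the Dlx cells and under DESeq2, and Enc1 (-2.71 ± 0.57, SE; edgeR adjusted p = 0.116) with no filter. With all ages and cells and the filter kept, edgeR thus showed no stage change to differ between the clusters, and for Fabp7, Id2, Hmgn2, Basp1, mt-Co1 and Enc1 the call depended on these choices.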

How the data were processed

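The authors deposited a table of whole-number counts of unique molecular identifiers per gene and cell and a table naming each cell's age and cluster; the unit was read from the values and the kit. Reads were processed with Cell Ranger against mm10, per the submitters' processing notes. The 11 libraries held 113369778 UMIs over 27933 genes. No count was changed, and doublets were not called again; leaving out cells over 2 times their age's median UMIs stands in for that.

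Counts were summed over nIPC cells at each age (10 or more cells), with both libraries of P0, P5 and P132 added. Genes passing filterByExpr were tested with edgeR 4.0.16 (TMM scaling, quasi-likelihood F test, two-sided, Benjamini-Hochberg over all genes tested, threshold 0.05, R 4.3.3, limma 3.58.1). A standard error is the log2 difference over the square root of F. The interaction with Neuroblast had age as a block, since both clusters of an age come from the same animals; deviations from stage means correlated at 0.0739 to 0.549 over 4825 genes. Shares were compared by exact permutation over ages, with cells thinned to 1000 UMIs (seed 5) and exact 95% intervals. A count of 0 was given a limit of 3 counts. Intervals and limits cover counting error only. Fits were tested on simulated data.

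Genes were named by rule: of those called, with a mean of 50 CPM or more and no overlap, the 10 largest differences each way, besides genes of 37 lists; for the cluster, of genes at 100 CPM or more, the 12 largest ratios to the lineage clusters and the 10 largest, either way, to nIPC-perin (10 CPM added). Pbk, Lockd, Cetn2, Cst3, Slc17a7, Ralgps2 and Hist1h2ap were named after their values were seen. The cluster, its markers and the lists were chosen with earlier results of these data known. Words of 31 bases shared between genes came from GENCODE M21 transcripts, and promoters from RefSeq (GRCm38.p6). Alternatives were RLE and upper-quartile scaling, no filter, DESeq2 1.42.0, 20 cells, nIPC-perin added, thinned sums, other denominators and depths, and each age left out. Leaving out cells rich in markers of other types or cells with a Dlx UMI was added after seeing the data. Figures used matplotlib 3.10.9. Some genes that met these rules are not reported here.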

Additional observations from a re-analysis of the deposited data

How the results depend on the processing

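Of 492 refits of 32 single genes, 339 kept direction and side of the threshold, 151 kept direction only, and 2 reversed: with nIPC-perin added to the sums, Apoe was -0.25 and Ptprz1 -0.43 (log2, juvenile minus perinatal). At the perinatal ages nIPC-perin averaged 1104 CPM of Apoe and 798 CPM of Ptprz1, against 93.1 and 96.9 CPM in nIPC. The cells added were 159, 136 and 156 at E16.5, P0 and P5, and 4, 1 and 7 at P18, P19 and P23. The part of these cells in the reversal was not tested. Between perinatal and juvenile ages, no filter on low counts gave 188 genes (43 higher, 145 lower) and DESeq2 100 (34 higher, 66 lower), against 45 (24 and 21). Leaving out 1 age gave 2 (P0) to 53 (P23), and 25 without E16.5. Between juvenile and adult ages, no filter gave 14, ages with 20 or more cells 36, nIPC-perin added 5, and leaving out 1 age 0 (P23) to 42 (P132). For the interaction, no filter gave 5, DESeq2 2, nIPC-perin added 57 (31 higher, 26 lower), leaving out cells rich in other markers 1, leaving out Dlx cells 3, and leaving out 1 age 0 to 3 (P5). Without age as a block, the pairing of the clusters ignored, it gave 0 genes, as with the block. Juvenile minus perinatal shares moved, on leaving out 1 age, from -1.56 (P0) to -0.84 (P5) percentage points for nIPC among all cells, from 1.86 (P23) to 15.0 (P18) for Top2a, and from -28.0 (E16.5) to -16.9 (P5) for Eomes. The Top2a difference reversed without thinning, at -4.71 percentage points against 6.45. Depth limits the juvenile and P132 sums, which held 46945 to 86237 UMIs.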
